A study of Oryza sativa and Arabidopsis thaliana with 16 samples.

Results

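Cytosolic ribosomes of plants are built from a small and a large subunit, and the proteins of the large subunit are numbered by family. The genes described here are those of the Arabidopsis thaliana families RPL3 to RPL24. Of 60 listed genes, 37 were matched to a probe set that the platform annotation pairs with that gene alone, among 22746 probe sets tested. For the other 23 genes the matching found no such probe set. It could miss genes that the annotation lists under a symbol rather than a locus code. As a result, 7 families (RPL3, RPL5, RPL10, RPL11, RPL23, RPL23a and RPL24) had no measured member. The measured genes belong to 17 families, 14 of them with at least 2 measured members. Each of the 37 had 1 probe set, and all 37 probe set names lack the suffixes that Affymetrix gives to sets shared between transcripts. The annotation names the measured genes by locus code, apart from PGY1 (AT2G27530), so family membership is background knowledge about these loci. Members of a family are close copies of each other, and cross-hybridisation between them was not checked, since no probe sequence was used here.

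Wild-type seedlings aged 13 days were profiled in 4 groups of 2 arrays each: nitrogen-treated roots, control roots, nitrogen-treated shoots and control shoots. Plants had grown in liquid culture at 22 °C under light of 50 μE, in medium that held sucrose at 3 mM and ammonium succinate at 0.5 mM. Nitrogen treatment was 20 mM KNO3 plus 20 mM NH4NO3 for 2 h, and controls received 20 mM KCl for the same time, so chloride and total salt differed along with nitrogen. The labels call the arrays of a group biological replicates and assign tissue per sample, although the protocol text speaks of whole seedlings. Values are log2 signal after RMA, which removes background, scales the arrays to each other and combines the probes of each set into 1 value.

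The ribosome is made in every growing cell, and its protein genes are among the most strongly expressed of a plant. In plants each large-subunit protein is usually encoded by a few paralogues, and their expression is known to be high in dividing tissue such as root tips and young leaves. Nitrogen and sugar supply are known to influence ribosome production.

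The tissue labels were checked against marker genes. The 2 leaf markers measured were RCA (Rubisco activase) and LHCB4.1 (a light-harvesting protein). The mean of both was 7.43 and 7.40 in the 2 nitrogen-treated root arrays, 7.72 and 6.55 in the 2 control root arrays, and 11.7 to 12.0 in the shoot arrays. Each marker was lower in roots (log2 difference -4.62 ± 0.13 for RCA, SE, and -4.65 ± 0.37 for LHCB4.1). The 2 control root arrays lay further apart in these markers than the 2 arrays of any other group. Of the 6 root markers measured, 5 were higher in roots and none lower, against 19.3% higher and 16.5% lower over all probe sets. The deposited arrays do not all share 1 distribution: the upper quartile over all probe sets was 7.22 and 7.20 in root nitrogen arrays, 6.92 and 6.83 in root controls, and 7.16 to 7.18 in shoot arrays. The root control arrays also agreed less well than other pairs, with a correlation of 0.956 over all probe sets, against 0.981 to 0.993 in the other groups. Over the 37 ribosomal members the root control arrays correlated at 0.993, close to the 0.994 of root nitrogen arrays, 0.986 of shoot nitrogen arrays and 0.995 of shoot control arrays.

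Most members gave bright signal. Averaged over the 8 arrays, 28 of 37 lay above the 95th percentile of all probe sets, and 34 above the 80th percentile, with means from 7.44 to 11.6. The remaining 3, AT3G48960 (RPL13 family), AT2G47570 (RPL18 family) and AT3G51190 (RPL8 family, whose proteins lie near the catalytic centre), had means from 4.49 to 5.07, under the 40th percentile. RMA values carry no detection call, so whether these 3 were above background is unknown. Within each array the median member ranked at the 98.7th and 98.2nd percentile in root nitrogen arrays, the 98.6th and 99.1st in root controls, the 97.8th and 96.7th in shoot nitrogen arrays, and the 97.1st and 97.5th in shoot controls.

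Large-subunit genes were higher in roots than in shoots. Of the 37 members, 27 were called higher in roots by limma (adjusted p under 0.05 over all probe sets, mean over both treatments) and none was called lower. Over all probe sets 19.3% were called higher and 16.5% lower. All 4 root arrays lay above all 4 shoot arrays in 27 members and below them in none, a separation found in 16.4% (above) and 14.8% (below) of all probe sets. Among the 1138 probe sets of the top 5% by mean signal, a range that holds most members, 39.1% were higher and 23.3% lower. The median member difference was 0.63 on the log2 scale, or 1.55-fold, against 0.066 over all probe sets, and called members ranged from 0.40 to 1.61. In a bulk sample, fewer cells rich in ribosomes and less ribosomal mRNA per cell cannot be told apart.

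**Figure D1:**
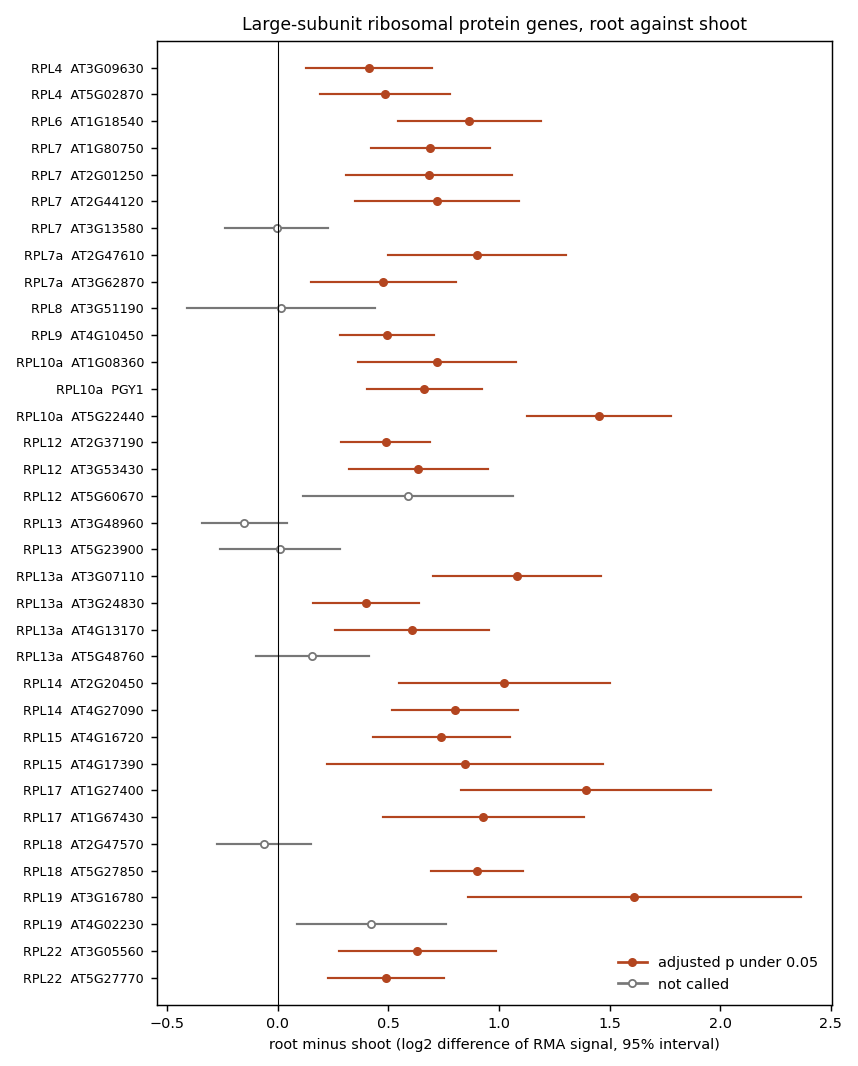
Log2 difference between roots and shoots for 35 of the 37 measured members, ordered by family, averaged over nitrogen and control arrays (4 root and 4 shoot arrays). Points are limma estimates and bars 95% intervals; filled points are the 27 members with an adjusted p under 0.05, all to the right of 0.

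The RPL19 family, whose protein helps to join the large to the small subunit, held the largest difference. AT3G16780 had 8.90 and 8.14 in nitrogen-treated roots and 8.30 and 9.33 in control roots, against 7.58 and 6.81 in shoot nitrogen arrays and 6.59 and 7.24 in shoot controls. All 4 root arrays lay above all 4 shoot arrays, although the root controls differed by 1.03 between themselves. The gene was higher in roots by 1.61 ± 0.32 (log2 difference ± SE, n = 4 arrays per tissue, limma adjusted p = 0.00698). Its paralogue AT4G02230 had 10.59 and 10.27 in nitrogen-treated roots and 10.70 and 10.50 in control roots, against 10.24 and 9.78 in shoot nitrogen arrays and 10.06 and 10.29 in shoot controls. There the tissues overlapped narrowly, and the difference of 0.42 ± 0.14 missed the threshold (adjusted p = 0.0571, 95% interval 0.085 to 0.76). It passed after quantile normalization, at 0.53 (adjusted p = 0.0158), without dim probe sets (adjusted p = 0.0497) and without shoot nitrogen replicate 1 (adjusted p = 0.0294).

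Proteins of the RPL10a family form the stalk beside the site where spent tRNA leaves the ribosome. AT5G22440 had 10.23 and 9.83 in nitrogen-treated roots and 10.12 and 10.34 in control roots, against 8.87 and 8.48 in shoot nitrogen arrays and 8.72 and 8.64 in shoot controls. Every root array was well above every shoot array, and the difference of 1.45 ± 0.14 had the smallest adjusted p of any member (0.000202). PGY1 (AT2G27530), known from mutants with altered leaf patterning, had 11.07 and 10.98 in nitrogen-treated roots and 11.06 and 11.31 in control roots, against 10.69 and 10.37 in shoot nitrogen arrays and 10.39 and 10.32 in shoot controls. PGY1 was higher in roots by 0.66 ± 0.11 (adjusted p = 0.00323), and AT1G08360 of the same family by 0.72 ± 0.15 (adjusted p = 0.00906). The 95% interval of AT5G22440, 1.13 to 1.78, lay above that of PGY1, 0.40 to 0.92, and that of AT1G08360, 0.36 to 1.08.

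Both genes of the RPL17 family, whose protein lines the tunnel through which the new peptide leaves, were higher in roots. AT1G27400 had 11.00 and 10.55 in nitrogen-treated roots and 10.81 and 11.10 in control roots, against 10.01 and 8.97 in shoot nitrogen arrays and 9.33 and 9.58 in shoot controls. The tissues did not overlap, and the difference was 1.39 ± 0.24 (adjusted p = 0.00366). AT1G67430 had 11.69 and 11.18 in nitrogen-treated roots and 11.43 and 11.59 in control roots, against 10.84 and 10.16 in shoot nitrogen arrays and 10.43 and 10.74 in shoot controls. It was higher in roots by 0.93 ± 0.19 (adjusted p = 0.00834), and the tissues again did not overlap. The RPL4 proteins line the same tunnel, and their 2 genes stood at the low end of the called range, with AT3G09630 at 0.41 ± 0.12 and AT5G02870 at 0.48 ± 0.12.

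The 4 genes of the RPL13a family spread more widely. AT3G07110 had 11.25 and 10.86 in nitrogen-treated roots and 11.12 and 11.36 in control roots, against 10.42 and 9.85 in shoot nitrogen arrays and 10.01 and 9.99 in shoot controls. It was higher in roots by 1.08 ± 0.16 (adjusted p = 0.00184), with no overlap between tissues. AT4G13170 was higher in roots by 0.61 ± 0.15 and AT3G24830 by 0.40 ± 0.10. AT5G48760 had 7.83 and 7.62 in nitrogen-treated roots and 7.34 and 7.28 in control roots, against 7.55 and 7.35 in shoot nitrogen arrays and 7.41 and 7.14 in shoot controls. Its tissues overlapped, with a difference of 0.16 ± 0.11 (adjusted p = 0.313, 95% interval -0.10 to 0.41). That interval lies below the 0.70 to 1.46 of AT3G07110.

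Within the RPL7 family 3 genes were higher in roots by closely similar amounts and the other one was not called. The called ones were AT2G44120 (0.72 ± 0.16), AT1G80750 (0.69 ± 0.11) and AT2G01250 (0.68 ± 0.16). AT3G13580 had 9.94 and 9.82 in nitrogen-treated roots and 10.17 and 9.91 in control roots, against 9.78 and 9.92 in shoot nitrogen arrays and 10.05 and 10.11 in shoot controls. The tissues overlapped fully, and the difference was -0.0063 ± 0.098 (adjusted p = 0.968). Its interval, -0.24 to 0.23, lies below those of all 3 paralogues, whose lowest bound is 0.31.

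In the RPL18 family AT5G27850 had 11.56 and 11.42 in nitrogen-treated roots and 11.67 and 11.75 in control roots, against 10.80 and 10.65 in shoot nitrogen arrays and 10.69 and 10.67 in shoot controls. Replicates of this gene agreed closely, and it was higher in roots by 0.90 ± 0.087 (adjusted p = 0.000229). The dim AT2G47570 of the same family was at -0.063 ± 0.090 (adjusted p = 0.634). Differences between paralogues were not tested as such.

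Of the other families, RPL14, RPL7a, RPL6 and RPL15 supplied the rest of the 10 largest differences. AT2G20450 (RPL14) had 8.65 and 8.17 in nitrogen-treated roots and 8.34 and 8.63 in control roots, against 7.96 and 7.17 in shoot nitrogen arrays and 7.21 and 7.36 in shoot controls, and was higher in roots by 1.02 ± 0.20 (adjusted p = 0.00686). AT2G47610 (RPL7a) was higher by 0.90 ± 0.17 and AT1G18540, the measured RPL6 gene, by 0.87 ± 0.14, each without overlap of the tissues. AT4G17390 (RPL15) had 11.20 and 10.48 in nitrogen-treated roots and 11.01 and 11.37 in control roots, against 10.67 and 9.65 in shoot nitrogen arrays and 10.02 and 10.32 in shoot controls. Its tissues overlapped, it was higher in roots by 0.85 ± 0.26 (adjusted p = 0.0436), and the call was lost with array weights (adjusted p = 0.0930). It was also lost in 6 of the 8 fits that each left out 1 array, at adjusted p values of 0.0611 to 0.138, and was kept only without root nitrogen replicate 2 or shoot nitrogen replicate 1. Neither measured gene of the RPL13 family was called, with AT5G23900 at 0.0080 ± 0.11 and AT3G48960 at -0.15 ± 0.081. The 3 measured genes of RPL12, whose protein sits at the base of the stalk where translation factors act, lay between 0.49 and 0.63, with 2 of them called.

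Tissue differences were of similar order in both treatments, which were measured on separate arrays. In nitrogen arrays alone 33 of 37 members were above 0 (median 0.49). Of the 37, 10 were called higher, against 13.1% of all probe sets and 23.6% of the top 5% by mean signal. In control arrays alone 35 of 37 were above 0 (median 0.71). Of the 37, 23 were called higher, against 15.5% of all probe sets and 30.5% of the top 5% by mean signal. All 10 members called in nitrogen arrays were also called in control arrays. Across the 37 members the nitrogen and control differences had a Pearson correlation of 0.91 and a Spearman correlation of 0.83, and over all probe sets the Pearson correlation was 0.85. These are correlations across genes, which share their arrays and are not independent. In 29 of 37 members the difference was larger in control arrays than in nitrogen arrays, but no member passed the test of that change, which is given below as the interaction. The median member difference did not rest on 1 array, with 0.53 to 0.73 when each array was left out in turn, and 18 of the 27 calls were kept in all 8 such fits.

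**Figure D2:**
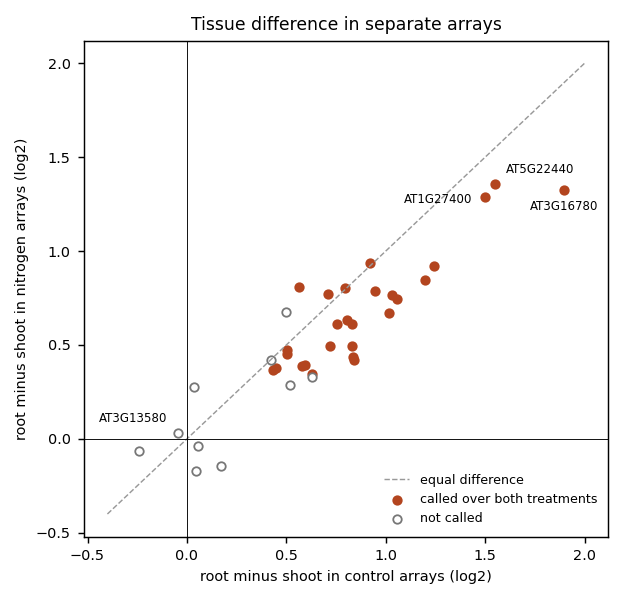
Log2 difference between roots and shoots in nitrogen arrays (vertical axis) against that in control arrays (horizontal axis), 1 point per member (37), with 2 arrays per tissue and treatment. The dashed line marks equal differences, filled points are the members called over both treatments, and 29 of 37 points lie below the line.

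The rest of the cytosolic ribosome showed similar differences. Over all probe sets 19.3% were called higher in roots and 16.5% lower, and among the top 5% by mean signal 39.1% and 23.3%. Of 43 measured genes for other large-subunit proteins, 29 were higher in roots and none lower (median 0.64), and of 42 small-subunit genes 28 were higher and none lower (median 0.53). AT1G07070 of the RPL35a family was higher by 1.91 ± 0.20, and among small-subunit genes AT1G23410 was higher by 1.48 ± 0.13. Of 7 measured genes for ribosome biogenesis, which make and modify ribosomal RNA and assemble the subunits, 5 were higher in roots, among them AT5G14520 (the PES homologue, 1.13 ± 0.13) and AT2G37990 (the RRS1 homologue, 1.07 ± 0.15). Genes for plastid large-subunit proteins went the other way: all 7 measured were lower in roots, with a median difference of -2.88, AT1G29070 being at -3.93 ± 0.19.

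**Figure D3:**
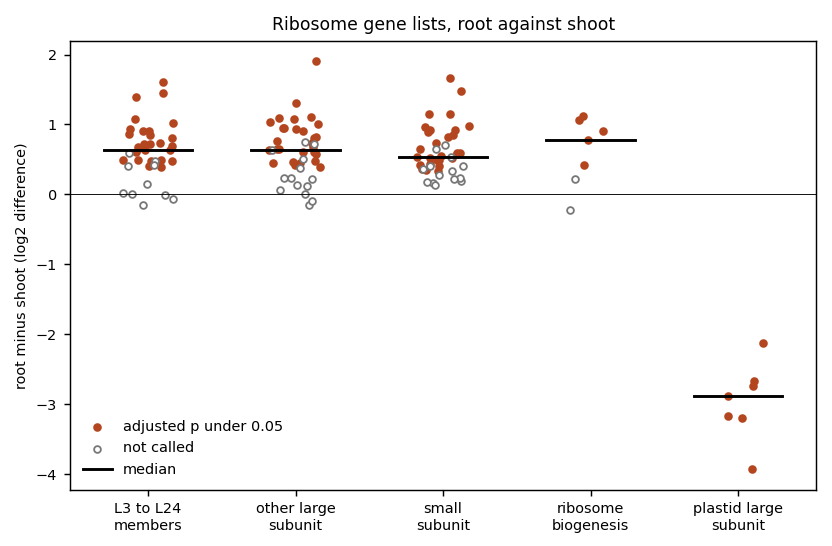
Log2 difference between roots and shoots (vertical axis) for the 37 members and 4 other lists of ribosome genes; points are genes, spread sideways for legibility, filled where the adjusted p was under 0.05, and lines are medians. The 3 cytosolic ribosomal protein lists have medians of 0.63, 0.64 and 0.53, and the plastid list lies wholly below -2.

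No member was called for nitrogen in either tissue. In roots limma called 0 of 37 (1 at an unadjusted p under 0.05), and the fit without moderated variances also called 0. Over all probe sets limma called 11.4% (6.94% higher and 4.44% lower), and among the top 5% by mean signal 6.06% higher and 0.879% lower. In shoots it called 0 of 37 (0 at an unadjusted p under 0.05), against 0.637% of all probe sets (0.374% higher and 0.264% lower), and again 0 without moderated variances. The median member difference was -0.17 in roots and -0.0076 in shoots, against 0.024 and -0.0081 over all probe sets. In roots 33 of 37 members were below 0, while 52.4% of all probe sets were above 0. Without root nitrogen replicate 2, however, the members' median was 0.0037 and 17 of 37 were below 0. In shoots 20 of 37 were below 0, but without shoot nitrogen replicate 2 the median was 0.21, and without shoot nitrogen replicate 1 it was -0.14. The precision was moderate: the 95% interval lay within 1 log2 unit of 0 for 32 of 37 members in roots and 36 of 37 in shoots, so changes below 2-fold are not shown to be absent.

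**Figure D4:**
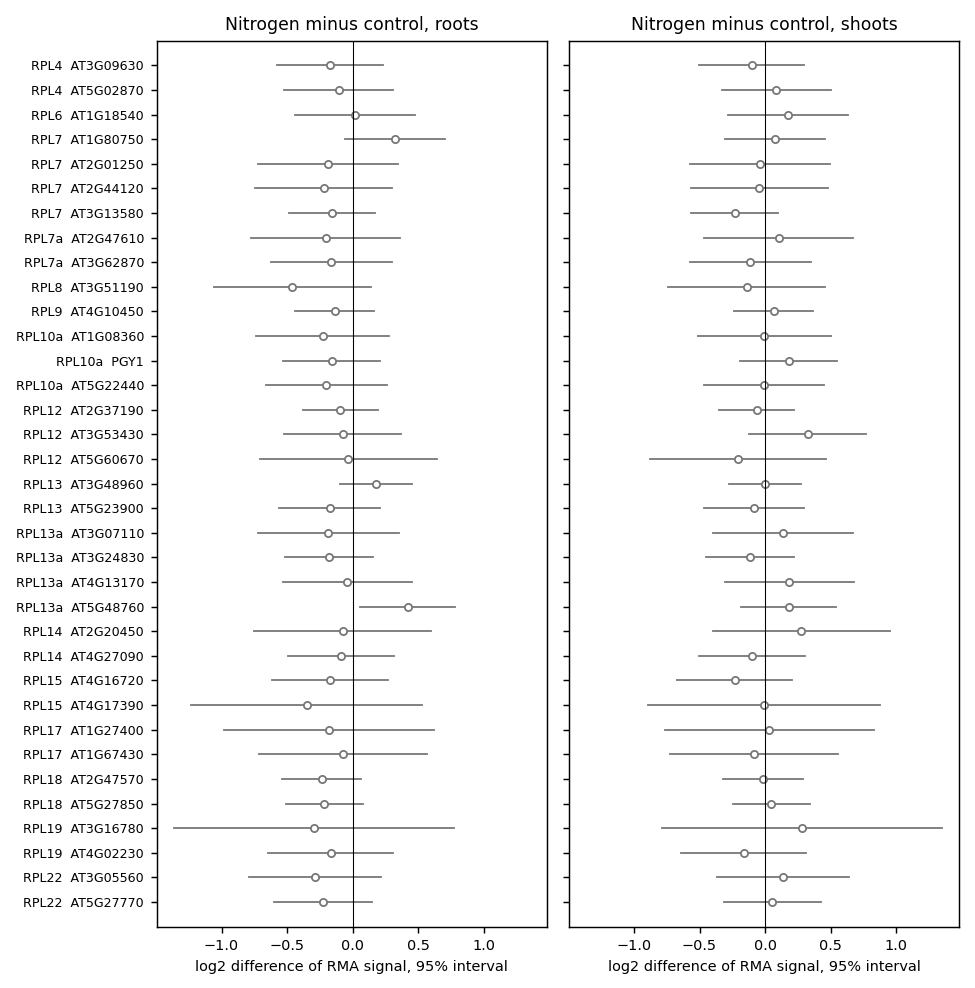
Log2 difference between nitrogen-treated and control plants for 35 of the 37 members, in roots (left) and shoots (right), with 2 arrays per group. Points are limma estimates and bars 95% intervals; no member was called, and only AT5G48760 in roots has an interval that leaves out 0.

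The smallest p in roots belonged to AT5G48760 of the RPL13a family. With 7.83 and 7.62 in root nitrogen arrays against 7.34 and 7.28 in root controls, its groups did not overlap, and the difference was 0.42 ± 0.15 (adjusted p = 0.118, 95% interval 0.057 to 0.78). AT1G80750 of the RPL7 family had 9.35 and 9.12 in root nitrogen arrays against 8.82 and 9.01 in root controls, a difference of 0.32 ± 0.16 (adjusted p = 0.226). The values of AT5G27850 (RPL18) were 11.56 and 11.42 in root nitrogen arrays against 11.67 and 11.75 in root controls, with a difference of -0.22 ± 0.12 (adjusted p = 0.277). The dim genes AT2G47570 and AT3G51190 were at -0.24 ± 0.13 and -0.46 ± 0.25. AT3G51190 had 4.77 and 4.72 in root nitrogen arrays against 4.82 and 5.59 in root controls, so its difference rested on 1 control array. Without root control replicate 1 it was called, at -0.84 (adjusted p = 0.0215), and without root control replicate 2 it was at -0.075. Nitrogen arrays lay wholly above controls for 3 members and wholly below for 9, against 30% and 27.3% of all probe sets.

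In shoots AT3G53430 (RPL12) had 10.68 and 10.31 in nitrogen arrays against 10.21 and 10.14 in controls, the only member whose nitrogen arrays lay wholly above the controls, a separation seen in 15.7% of all probe sets. Its difference was 0.32 ± 0.19 with an interval of -0.12 to 0.77 (limma adjusted p = 1.00). AT3G13580 (RPL7) had 9.78 and 9.92 in nitrogen arrays against 10.05 and 10.11 in controls and was the only member wholly below, as 18.7% of all probe sets were, with a difference of -0.23 ± 0.14. For AT4G16720 (RPL15) the shoot values were 11.35 and 10.87 in nitrogen arrays against 11.31 and 11.38 in controls, a difference of -0.23 ± 0.19. The shoot difference of AT5G48760 was 0.18 ± 0.15, that of PGY1 (AT2G27530) 0.18 ± 0.16 and that of AT2G20450 0.28 ± 0.28.

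Averaged over the tissues, limma called 0 of 37 members for nitrogen (1 at an unadjusted p under 0.05, and 0 without moderated variances), against 3.21% of all probe sets (2.17% higher and 1.04% lower). AT5G48760 came first at 0.30 ± 0.11 (adjusted p = 0.175), and among those after it were AT3G13580 at -0.20 ± 0.098, AT1G80750 at 0.20 ± 0.11, AT3G51190 at -0.30 ± 0.18 and AT4G16720 at -0.20 ± 0.13. The root response was not shown to differ from the shoot response: 0 of 37 members were called by limma (0 at an unadjusted p under 0.05, and 0 without moderated variances), against 0.484% of all probe sets (0.343% higher and 0.141% lower). The median of root minus shoot response was -0.19, and ran from -0.34 to 0.0080 when each array was left out, the low end without root nitrogen replicate 1 and the high end without shoot nitrogen replicate 1. The smallest p values belonged to PGY1 (AT2G27530, -0.34 ± 0.22, adjusted p = 0.443), AT3G53430 (-0.40 ± 0.27), AT5G27850 (-0.26 ± 0.17), AT3G05560 (-0.42 ± 0.30) and AT5G27770 (-0.28 ± 0.22), the last 2 being the RPL22 genes, and AT2G47570 (-0.22 ± 0.18).

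Members moved together between replicates of the same group. In root nitrogen arrays replicate 1 was above replicate 2 in 32 of 37 members, with a median gap of 0.32, and in shoot nitrogen arrays the same held for 32 of 37, with a median gap of 0.39. In root controls replicate 1 was above replicate 2 in 6 of 37 (median gap -0.18) and in shoot controls in 11 of 37 (median gap -0.078). Over all probe sets the median gap lay between -0.011 and -0.0017. Among the top 5% by mean signal it was 0.065 in root nitrogen and 0.11 in shoot nitrogen arrays. In root controls that bright set had 0.12 and in shoot controls -0.073, so the members' shoot control gap was close to that of bright probe sets in general. The median member was at 11.00 and 10.55 in root nitrogen arrays against 10.83 and 11.19 in root controls, and at 10.47 and 9.92 in shoot nitrogen arrays against 10.06 and 10.32 in shoot controls. Treated and control arrays thus overlapped in each tissue, and the gap between replicates exceeded the median nitrogen difference.

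**Figure D5:**
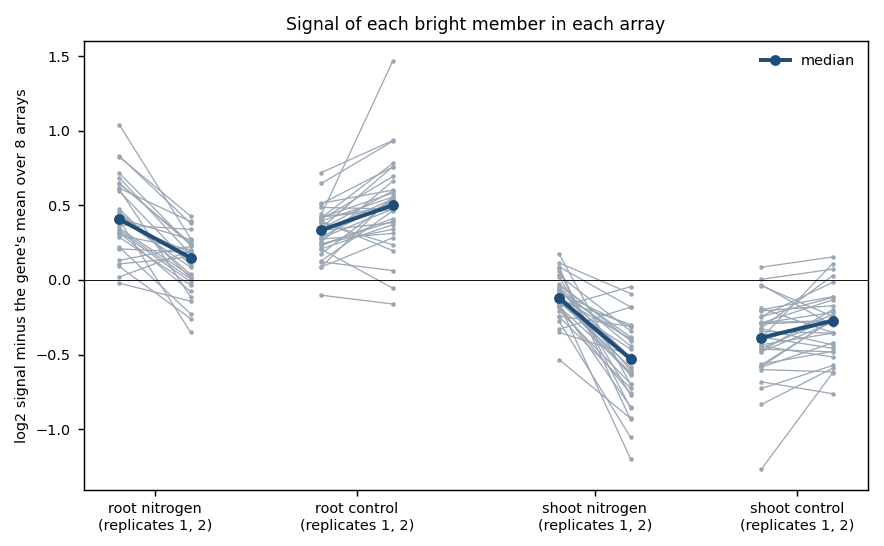
Log2 signal of each of the 34 members above the 80th percentile, minus that gene's mean over the 8 arrays, with replicates 1 and 2 of a group joined by a line; the thick line joins the medians. Replicate 1 lies above replicate 2 in most members of both nitrogen groups, where median gaps over all 37 members were 0.32 and 0.39, and every root median lies above every shoot median.

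The gaps between nitrogen arrays were shared by the rest of the cytosolic ribosome, and each gap also by some other lists. Between shoot nitrogen arrays replicate 1 was higher by a median of 0.40 in the other large-subunit genes and 0.38 in the small-subunit genes, and between root nitrogen arrays by 0.28 and 0.26. The plastid large-subunit genes had 0.37 in shoot and -0.055 in root nitrogen arrays, and the ribosome biogenesis genes 0.38 and 0.062. The 6 root markers had -0.015 in shoot and 0.25 in root nitrogen arrays, and the 2 leaf markers 0.23 and 0.029. A measure of RNA integrity, the actin control probe set from the 3′ end minus that from the 5′ end, was 1.56 and 1.29 in root nitrogen arrays against 1.19 and 1.73 in root controls, and 1.76 and 1.69 in shoot nitrogen arrays against 1.79 and 1.80 in shoot controls. In each of the 4 groups the array with the higher actin value also had the higher member median, but the shoot controls barely differed in actin (1.790 and 1.797). The same measure from the GAPDH control probe sets gave the same order in each group, with -0.29 and -0.22 in shoot controls. Between tissues the actin order was not the same: shoot arrays had actin values of 1.69 to 1.80, against 1.19 to 1.73 in roots, and lower member medians. GAPDH values were -0.29 to -0.20 in shoots and -0.44 to -0.15 in roots. The part of RNA integrity in these gaps and in the comparisons above was not tested.

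Nitrogen calls in roots were also counted in the other ribosome gene lists, beside 6.94% of all probe sets called higher and 4.44% lower. Of 7 ribosome biogenesis genes 2 were called higher. AT5G15550 (the WDR12 homologue, needed to process large-subunit RNA) was at 0.73 ± 0.15 (limma adjusted p = 0.0307). NRPA2 (AT1G29940, a subunit of RNA polymerase I, which transcribes ribosomal RNA) was at 0.62 ± 0.15 (limma adjusted p = 0.0439). The 43 other large-subunit genes had no call (limma, 2 at an unadjusted p under 0.05), with a median of -0.085. Of the 42 small-subunit genes 1 rose, AT1G23410 (a ubiquitin fusion of the RPS27a family), by 0.90 ± 0.18. In shoots none of the genes on these lists was called by limma, and none had an unadjusted p under 0.05. Alternative settings were read for the members only, so the root calls named here have no such check. The upper quartile over all probe sets was 6.92 and 6.83 in root controls against 7.22 and 7.20 in root nitrogen arrays. The part of that distribution difference in these calls was not tested.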

How the data were processed

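Per the submitters' processing notes, the authors made the deposited log2 values per probe set with RMA; its version, and which arrays were processed together, were not given in the sources used here. No further scaling was applied. The 64 control probe sets of 22810 were left out. Gene names came from GEO's annotation of the platform (13513 with 1 gene, 503 with several, 8730 not paired with a gene there); 36 members matched by locus code and PGY1 by symbol. A linear model with 4 group means was fitted to the 8 Arabidopsis arrays with limma 3.58.1 in R 4.3.3 (4 residual degrees of freedom, moderated variances). The fit was run on simulated data with noise drawn separately for each probe set. Those data held no shift shared by genes of an array, so calls under such a shift were not tested. P values are two-sided and Benjamini-Hochberg adjusted over all probe sets; a call is an adjusted p under 0.05. Members and lists were chosen with earlier results of these data known. Per contrast, the named members are all called ones up to 10, otherwise the 10 with the largest difference, and, where fewer than 6 were called, those with the smallest unadjusted p up to 6; all members of the 6 families with the widest range of tissue differences are named too, and at most 3 called genes of each other list. Members named outside this rule, those of RPL4, RPL12 and RPL13, and the dim AT3G51190 and AT3G48960, were chosen after their values were seen. Values of 2 members and of 1 gene of another list are not reported here one by one; they stay in the counts and medians. Alternatives were quantile normalization, median centring, array weights, 1 tissue alone, unmoderated variances, leaving out the dimmest 40% of probe sets, a replicate block, 1 row per gene, leaving out each array and, chosen after seeing the data, each treatment alone. The small number of arrays limits the precision. The 8 rice arrays of the series' 16 were not used here.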

Additional observations from a re-analysis of the deposited data

How the results depend on the processing

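Of the 27 members called higher in roots, 27 were still called after quantile normalization (30 members in all), after median centring, with 1 row per gene and with dim probe sets left out (30 in all), 24 with array weights, and 17 without moderated variances. In nitrogen arrays alone the count was 10 and in control arrays alone 23; fewer arrays enter these. When each array was left out, 20 to 26 of the 27 were still called, and 20 to 29 members in all. The sign held for all 27 in each of these settings. Nitrogen calls were 0 in every setting apart from those leaving out 1 array, where roots and the mean over tissues gave 0 to 1. Replicate numbers are not stated to mark shared plants, so pairing was not assumed. Same-numbered arrays of different groups deviated together at correlations from -0.42 (root nitrogen with shoot control) to 0.39 (root nitrogen with shoot nitrogen). Root control with shoot control was at 0.0049. The replicate block fits the same shift in all groups, so it cannot show pairing of root and shoot within a treatment, which was not tested. With the replicate block 27 members were called between tissues, 26 of them among those 27, and 0 for nitrogen; AT4G17390 was the call lost (adjusted p = 0.0505). Sign changes among uncalled values included AT3G13580 between tissues (0.079 after quantile normalization, 0.032 in nitrogen arrays alone, -0.071 to 0.059 leaving out each array), AT2G47570 between tissues (0.048 in control arrays alone), AT5G23900 and AT3G51190 between tissues (-0.038 and -0.15 in nitrogen arrays alone), and in shoots with nitrogen AT4G16720 (-0.47 to 0.0076) and AT2G20450 (-0.12 to 0.67), each leaving out 1 array. The cause was not tested. The median nitrogen difference ran from -0.32 to 0.0037 in roots and from -0.14 to 0.21 in shoots when each array was left out.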

Other observations

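Plastid large-subunit genes encode proteins of the chloroplast ribosome, and 7 of the 26 listed were measured. For nitrogen in roots all 7 were above 0, as were 52.4% of all probe sets, with a median difference of 0.45 and values from 0.043 to 0.96. Replicate 1 minus replicate 2 of the root controls ran from -1.58 to 1.25 among these genes, so some of the differences rested largely on 1 control array. None was called by limma (lowest adjusted p = 0.0629, 1 at an unadjusted p under 0.05), and in shoots the median was -0.026. Their mean level was 6.79 and 6.79 in root nitrogen arrays against 6.45 and 6.34 in root controls. The leaf markers RCA and LHCB4.1 averaged 7.43 and 7.40 in root nitrogen arrays against 7.72 and 6.55 in root controls, and their part in this was not tested. The upper quartile over all probe sets was 7.22 and 7.20 in root nitrogen arrays against 6.92 and 6.83 in root controls. The part of that distribution difference in the plastid gene values was not tested either.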
